A study of Mus musculus with 4 samples.

Results

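Gene deserts are stretches of chromosome that lie far from any protein-coding gene, and 116104 of the 1578514 called regions in the deposited table fell in them. A region was counted as a desert region when its midpoint lay on chromosomes 1 to 19, more than 500 kb from every protein-coding gene of the RefSeq annotation of GRCm38.p6, whose coordinates are those of mm10. The rule used position alone and none of the measured values. Desert regions were 7.36% of the table and 7.65% of the 1517324 regions on chromosomes 1 to 19. They were set beside the 1011744 regions within 50 kb of a protein-coding gene, gene bodies included, and the 389476 regions at 50 to 500 kb formed the class between.

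The cells were primary neural stem cells cultured from mice, with the genotype label WT, in which Six3 was overexpressed. All libraries came from cells 3 h after growth medium with EGF and FGF was exchanged for neurobasal medium with B-27, a change that starts neural differentiation. Chromatin was cut by CUT&RUN, in which protein A/G fused to micrococcal nuclease releases DNA at antibody-bound sites, with 3 libraries labelled for the FLAG tag of Six3 and 1 labelled IgG, the antibody control. The sources used here do not give the strain, the age of the mice, the promoter behind Six3 or whether the IgG cells also overexpressed it. The table has no column of a single library, nor do they say which libraries it combines. So no FLAG signal could be set against IgG, no replicate error and no test exist for any value below, and depth is unknown. The values that follow are described over the 19 chromosomes, which are not replicates, and intervals cover counting error only.

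Six3 is a homeodomain protein that shapes the early forebrain and the eye, largely by repressing other genes. Gene deserts are known in mammals for conserved non-coding elements that can act as enhancers over long distances, often on genes for transcription factors or cell adhesion molecules at the edge of the desert. Other deserts hold few known elements. Long non-coding RNA (lncRNA) and microRNA (miRNA) genes may lie inside a desert, since the definition counts protein-coding genes only.

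The height of each region is the authors' highest coverage signal within it, and heights on the deposited scale were whole multiples of either 1.9 or 0.48. The 2 sets are called the 1.9-step and the 0.48-step set, and because their scales may differ, each was described by itself. All desert regions fell in 1 of the sets, 66723 as multiples of 1.9 and 49381 as multiples of 0.48. The 1.9-step share was thus 57.5% in deserts, against 60.3% over chromosomes 1 to 19. The 3 regions of the table that were multiples of neither or of both lay outside deserts.

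By this definition 249 deserts covered 202 Mb, or 8.41% of the 2403 Mb spanned by regions on chromosomes 1 to 19. Their median length was 0.493 Mb, after the 500 kb margin on either side was taken off, and 122 were at least 0.5 Mb long. Chromosome 1 held 21.3 Mb of desert, the most, and chromosome 19 held 1.51 Mb, the least. Of 20661 protein-coding genes, 457 stood at the edge of a desert. The annotation placed 298 lncRNA genes, 566 pseudogenes and 21 miRNA genes at least partly inside. The definition also took in 3 places known for another kind of gene, because antigen receptor gene segments are not annotated as protein-coding: the immunoglobulin heavy chain locus between Adam6a and Zfp386, the kappa light chain locus, and the T cell receptor alpha locus between Gm36448 and Dad1.

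LncRNA promoters are the annotated starts of transcription inside deserts whose sequence was at hand. RefSeq promoters, from 250 bases before to 50 after the start, were read on GRCm38.p6. Of the 231 promoters of 206 lncRNA genes in deserts, 12 were touched by a 1.9-step region of 4 steps or more (a height of at least 7.6), called tall here. The 4 with a height of at least 9.5 are shown because their regions are the tallest that touched a desert lncRNA promoter. Capitals are the bases under the region, and the strand shown is that of the gene.

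Gm30113, chr15:62953966-62954265, plus strand, height 11.4, between Myc and Gsdmc: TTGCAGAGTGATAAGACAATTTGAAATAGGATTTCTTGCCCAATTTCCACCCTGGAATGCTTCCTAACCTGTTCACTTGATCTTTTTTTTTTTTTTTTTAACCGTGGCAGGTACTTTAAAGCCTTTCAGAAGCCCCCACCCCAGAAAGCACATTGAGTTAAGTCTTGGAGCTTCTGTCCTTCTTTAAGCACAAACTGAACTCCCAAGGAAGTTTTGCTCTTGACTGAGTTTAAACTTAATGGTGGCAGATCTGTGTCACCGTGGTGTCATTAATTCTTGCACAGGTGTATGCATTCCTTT
Gm30159, chr15:63145397-63145696, minus strand, height 9.5, between Myc and Gsdmc: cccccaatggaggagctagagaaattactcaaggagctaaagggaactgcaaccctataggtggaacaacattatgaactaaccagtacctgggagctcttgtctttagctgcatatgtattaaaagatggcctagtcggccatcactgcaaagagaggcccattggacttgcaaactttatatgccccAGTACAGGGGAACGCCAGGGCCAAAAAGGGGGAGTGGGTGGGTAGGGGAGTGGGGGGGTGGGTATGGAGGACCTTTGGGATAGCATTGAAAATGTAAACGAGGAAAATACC
Gm32173, chr4:31323843-31324142, plus strand, height 9.5, between Epha7 and Map3k7: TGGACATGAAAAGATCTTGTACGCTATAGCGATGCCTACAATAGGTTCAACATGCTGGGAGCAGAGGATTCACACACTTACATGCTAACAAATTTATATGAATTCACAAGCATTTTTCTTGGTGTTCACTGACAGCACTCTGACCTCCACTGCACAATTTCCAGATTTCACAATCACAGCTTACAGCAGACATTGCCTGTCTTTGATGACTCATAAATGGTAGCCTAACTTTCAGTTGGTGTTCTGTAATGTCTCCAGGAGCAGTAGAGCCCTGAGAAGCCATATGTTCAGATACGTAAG
Gm46796, chr3:6106767-6107066, plus strand, height 9.5, between Pex2 and 1700008P02Rik: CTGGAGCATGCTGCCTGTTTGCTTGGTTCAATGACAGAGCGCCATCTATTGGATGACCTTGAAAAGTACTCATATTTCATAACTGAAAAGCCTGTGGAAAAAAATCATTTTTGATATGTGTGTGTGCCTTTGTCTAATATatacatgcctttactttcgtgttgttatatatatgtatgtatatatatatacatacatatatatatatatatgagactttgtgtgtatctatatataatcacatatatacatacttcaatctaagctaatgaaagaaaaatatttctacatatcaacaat

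The regions covered the windows of Gm30113 and Gm32173 wholly, all 300 bases each, but 111 bases of Gm30159 and 140 bases of Gm46796. The region at Gm46796 ended upstream of the start of transcription and did not cover it. Gm32173 and Gm46796 were also touched by a 0.48-step region with a height of 0.96. Any 1.9-step region touched 33.3% of the desert lncRNA promoters (77 of 231), against 34.7% of the lncRNA promoters within 50 kb of a gene (2785 of 8036). Tall regions touched 5.19% (12 of 231), against 9.66% near genes (776 of 8036) and 9.78% of all 31396 promoters. Of these 12, 4 lie on chromosome 15, among them Gm30113 and Gm30159, whose desert between Myc and Gsdmc had mostly tall 1.9-step regions (74.5%). Without chromosomes 5, 10 and 15, which hold segments of raised 1.9-step signal, tall regions touched 4.23% in deserts (8 of 189) and 8.98% near genes (607 of 6757). For the 0.48-step set the shares were 11.3% in deserts (26 of 231) and 13.2% near genes (1057 of 8036). Shares of promoters touched by any region thus lay close together, and the share touched by a tall region was lower in deserts. The median GC content of these windows was 42.3% in deserts and 49.7% near genes, and its part in the differences was not tested. The letters TGATAC, a core motif bound by Six3 and its relatives, were searched on both strands (GTATCA on the other). They occurred in 10.4% of desert lncRNA promoters (24 of 231) and 6.46% of those near genes (519 of 8036). The share was 8.80% for lncRNA promoters at 50 to 500 kb and 5.42% for all promoters. Median GC content was 45.7% at 50 to 500 kb and 53% over all promoters, and its part in the motif shares was not tested. None of the 12 promoters under a tall region held the motif letters, which says only that these letters are not in these windows.

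MiRNAs are the other annotated products of deserts, and 8 of the 21 miRNA genes belonged to the Mir344 group, within 154 kb of chromosome 7 (61683124 to 61837402) between Gm51483 and Ndn. Ndn encodes necdin, a protein of the imprinted Prader-Willi region that is expressed in neurons. A single mature form is shown for each gene whose hairpin a 1.9-step region overlapped and for 2 well-known brain miRNAs. Its seed, bases 2 to 8, is in capitals. Other mature forms of these genes are left out. MiR-344d-3p also comes from Mir344d-2 and Mir344d-3, whose hairpins no 1.9-step region overlapped.

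miR-344d-3p (from Mir344d-1): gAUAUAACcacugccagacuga
miR-344e-3p (from Mir344e): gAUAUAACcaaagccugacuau
miR-6350 (from Mir6350): uAGCAGGUgcauuauaaauau
miR-135a-5p (from Mir135a-2): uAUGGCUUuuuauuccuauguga
miR-125b-5p (from Mir125b-2): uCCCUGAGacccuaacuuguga

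MiR-344d-3p and miR-344e-3p share the seed AUAUAAC, and the other 3 have seeds of their own. A 1.9-step region overlapped the hairpin of Mir344d-1 at a height of 3.8, of Mir344e at 7.6 and of Mir6350 at 7.6. These are 3 of 21 genes, against 23.5% of all 980 miRNA genes on chromosomes 1 to 19. A 0.48-step region overlapped 1 hairpin, that of Mir344d-2, at 0.96, and the share over all miRNA genes was not counted. All 21 miRNA genes had a 1.9-step region within 5 kb. The median gap between such regions in deserts was 1668 bp, so a neighbour within 5 kb is common there. Of the 21 genes, 9 had a tall 1.9-step region within 5 kb, against 62.0% of all miRNA genes. Mir135a-2 and Mir125b-2 had the highest such neighbour along with Mir6350, at 9.5 in each case. MiR-135a and miR-125b are miRNAs of the nervous system, and miR-125b promotes neuronal differentiation in cultured human cells. Mir135a-2 and Mir1251 lie in the desert between Tmpo and Nedd1, the one beside and the other inside the lncRNA gene Rmst.

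Deserts held fewer 1.9-step regions per Mb than sequence near genes, and the 0.48-step set differed much less. The 1.9-step density was 330.3 regions per Mb in deserts, 364 per Mb at 50 to 500 kb and 394 per Mb within 50 kb of a gene. The ratio of deserts to near-gene sequence was 0.838, with an SD of 0.0365 over chromosomes, and it was below 1 on 19 of 19. It ranged from 0.767 on chromosome 15 to 0.915 on chromosome 13, with a median of 0.841. The 0.48-step density was 244 per Mb in deserts and 253 per Mb near genes, a ratio of 0.967 with an SD of 0.0358 over chromosomes. That ratio was below 1 on 18 of 19 chromosomes, and chromosome 7, at 1.04, was the exception. Chromosome 15 was the lowest for this set as well, at 0.893.

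**Figure D1:**
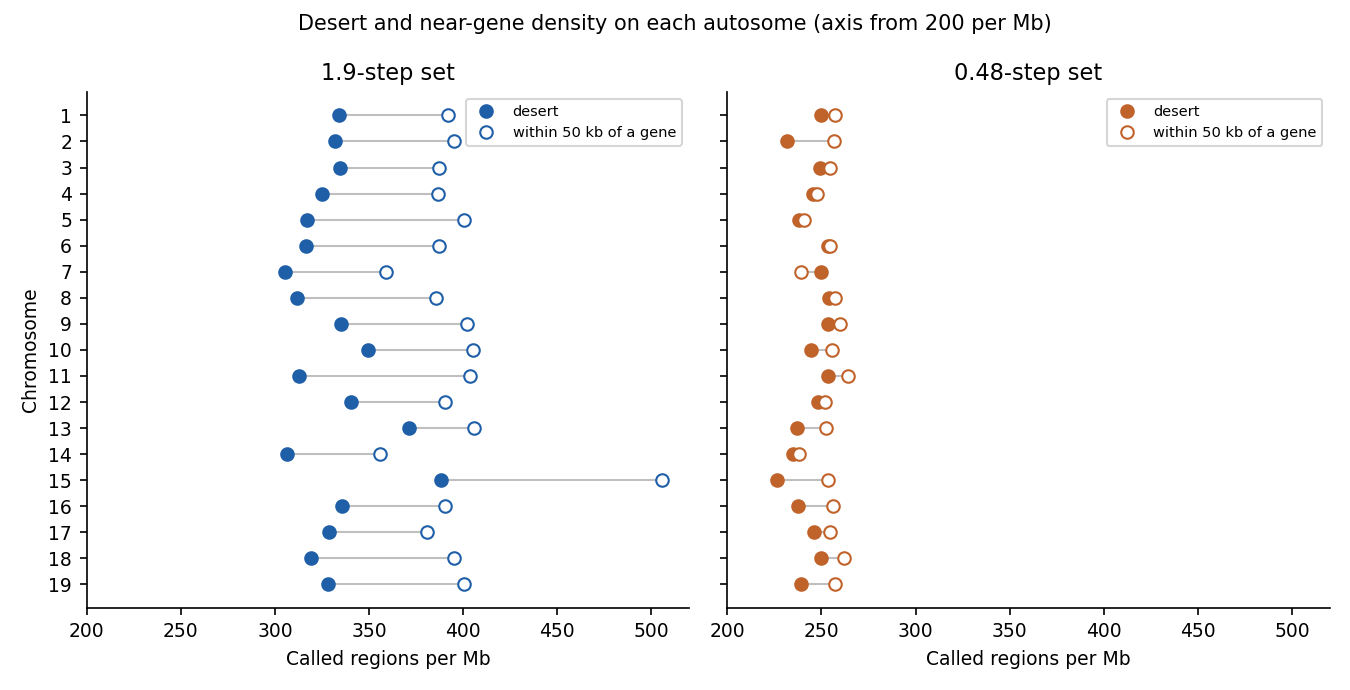
Called regions per Mb on each of the 19 chromosomes (vertical axis), with filled points for deserts and open points for sequence within 50 kb of a gene, 1.9-step set on the left and 0.48-step set on the right; the horizontal axis begins at 200 per Mb. Every filled point of the 1.9-step set lies left of its open point, while those of the 0.48-step set lie close together and chromosome 7 has them in the opposite order.

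Pooled over chromosomes, the 1.9-step density was lower in each class farther from genes. It was 401 regions per Mb inside genes, 383 up to 50 kb away, 372 at 50 to 100 kb, 365 at 100 to 250 kb, 354 at 250 to 500 kb, 336 at 500 to 1000 kb and 319 beyond 1000 kb. Sequence beyond 1000 kb was sparser than that at 500 to 1000 kb on 15 of the 18 chromosomes that have it. Chromosomes 6, 9 and 13 had the opposite order, with 317, 352 and 377 per Mb beyond 1000 kb against 316, 334 and 370 (369.6) at 500 to 1000 kb. The density was lower at every class in turn on 6 of these 18 chromosomes. The 0.48-step density was 256 per Mb inside genes and between 243 and 248 per Mb in all the other classes, with no order by distance. At the 500 kb threshold itself, sequence just inside (500 to 510 kb) held 347 1.9-step regions per Mb, of which 21.3% were tall, and sequence just outside (490 to 500 kb) held 349 per Mb, of which 21.4% were tall. For the 0.48-step set the values were 247 per Mb just inside and 242 per Mb just outside, with 25.3% tall just inside and 23.1% just outside.

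**Figure D2:**
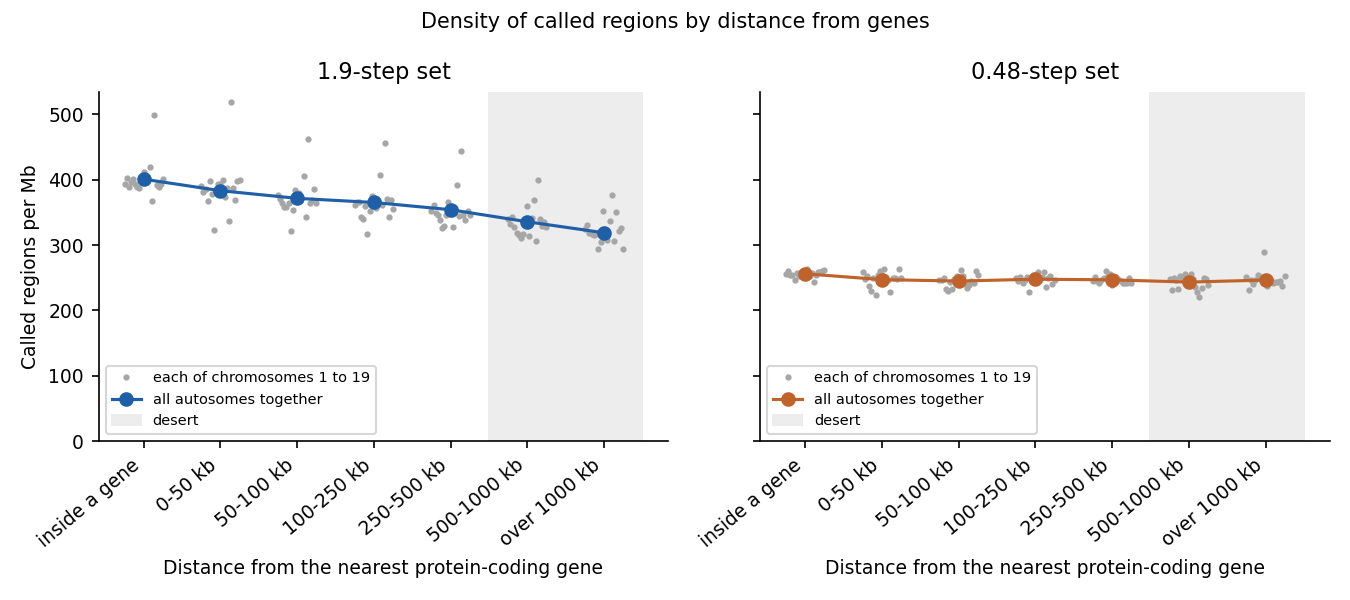
Called regions per Mb (vertical axes) in 7 classes of distance to the nearest protein-coding gene, from inside a gene to over 1000 kb, with the 1.9-step and the 0.48-step set drawn apart, the classes pooled over chromosomes and the value of each chromosome beside them. The pooled 1.9-step values descend at every class, from 401 inside genes to 319 beyond 1000 kb, and the 0.48-step values stay between 243 and 256.

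The lower 1.9-step density was seen across desert sequence. In windows of 100 kb lying wholly in deserts (n = 1897) the median was 320 1.9-step regions per Mb with an interquartile range of 290 to 370, against 400 per Mb with a range of 350 to 450 in the 14507 windows near genes. The median of desert windows therefore lay below the lower quartile near genes, although the windows overlapped widely. In all, 1 desert window and 53 near-gene windows had no 1.9-step region. For the 0.48-step set the medians were 240 per Mb in deserts and 250 per Mb near genes. The gap from the end of a 1.9-step region to the start of the next had a median of 1668 bp in deserts and 1325 bp near genes. For the 0.48-step set the median gap was 2603 bp in deserts and 2495 bp near genes.

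Desert regions of the 1.9-step set were also less often tall. At 4 steps or more, a level that 23.1% of all 1.9-step regions on chromosomes 1 to 19 reached, 20% of the desert regions were tall (13346 of 66723, Wilson 95% interval 19.7 to 20.3%). Near genes 23.7% were tall (145867 of 616512, 23.6 to 23.8%). The difference, desert minus near, was -3.66 percentage points, and it was negative on 19 of 19 chromosomes, between -8.37 on chromosome 5 and -0.372 on chromosome 15. Without chromosomes 5, 10 and 15 the shares were 19.2% in deserts and 22.8% near genes. Tall regions numbered 66.1 per Mb in deserts and 93.3 per Mb near genes, a ratio of 0.708. In the 0.48-step set, where tall meant 3 steps or more (1.44) and the background was 24.5%, the share was 23.9% in deserts and 24.6% near genes, and the desert share was the lower on 15 of 19 chromosomes.

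Desert sequence was poorer in tall than in low regions. In the 1.9-step set the ratio of desert to near-gene density was 0.949 at 2 steps, the lowest height in the table, 0.817 at 3 steps, 0.729 at 4, 0.669 at 5, 0.620 at 6, 0.640 at 7 and 0.539 at 8 steps or more. The desert density was the lower on 16 of 19 chromosomes at 2 steps, on all 19 at 3, 4 and 5 steps, on 18 at 6, on 16 at 7 and on 13 at 8 or more. Without chromosomes 5, 10 and 15 the ratio was 0.952 at 2 steps and 0.571 at 8 or more. In the 0.48-step set it was 0.975 at 2 steps, 0.950 at 3, 0.908 at 4, 0.850 at 5 and 1.02 at 6 steps or more, and the last became 0.927 without those chromosomes.

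**Figure D3:**
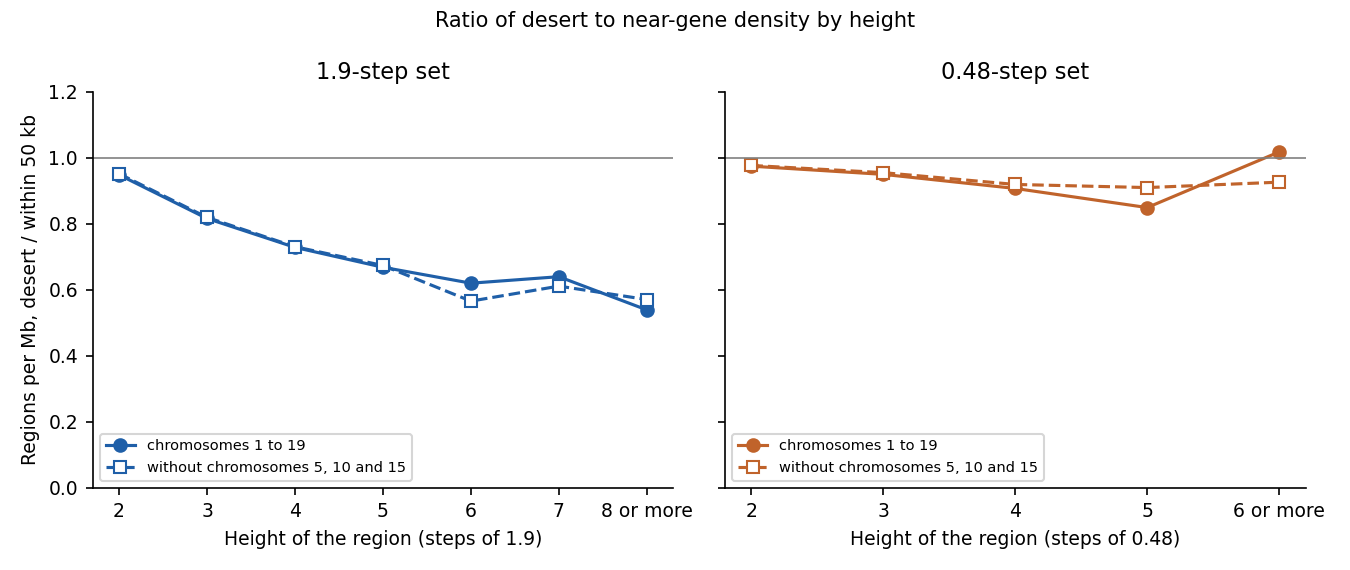
Ratio of desert to near-gene regions per Mb (vertical axis) at each height in steps (horizontal axis) for the 1.9-step and 0.48-step sets, over all 19 chromosomes and without chromosomes 5, 10 and 15; 1 means equal density. The 1.9-step ratio goes down from 0.949 at 2 steps to 0.539 at 8 or more, and the 0.48-step ratio stays between 0.850 and 1.02.

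The greatest heights were few, and there the desert and near-gene intervals overlapped. Regions of 10 steps or more (a height of at least 19) numbered 21 in deserts, or 10.4 per 100 Mb (exact Poisson 95% interval 6.44 to 15.9), against 257 near genes, or 16.4 per 100 Mb (14.5 to 18.6). Without chromosomes 5, 10 and 15 they numbered 15 in deserts, or 8.86 per 100 Mb (4.96 to 14.6), and 127 near genes, or 9.64 per 100 Mb (8.04 to 11.5). Of 20 steps or more there were 5 in deserts, or 2.48 per 100 Mb (0.804 to 5.78), and 29 near genes, or 1.86 per 100 Mb (1.24 to 2.66). At 20 steps or more the near-gene interval lay inside the wider desert interval. The intervals take regions as independent, although some of the 21 stood in the clusters described below. Overlap of the intervals does not show that the rates are equal.

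Widths differed little. The median 1.9-step region was 451 bp wide in deserts and 456 bp near genes, narrower in deserts on 17 of 19 chromosomes, with an SD of 7.25 bp between the desert medians of the chromosomes. Widths in the 0.48-step set were 195 bp in deserts and 194 bp near genes. At equal height, 1.9-step regions of 2 steps measured 449 bp in deserts and 448 bp near genes, and those of 5 steps 533 bp in deserts and 548 bp near genes. At 8 steps or more the medians were 695 bp in deserts and 907 bp near genes, and without chromosomes 5, 10 and 15 they were 449 bp in deserts and 599 bp near genes. Together, number and width made 1.9-step regions cover 16.5% of desert sequence and 20.2% of near-gene sequence. Their summed signal per bp of sequence was 0.525 in deserts and 0.661 near genes. The 0.48-step set covered 5.54% of desert and 5.71% of near-gene sequence. Overlap of at least 1 bp with a region of the other set was found for 24.3% of 0.48-step regions in deserts and 29.3% near genes, and for 17.1% of 1.9-step regions in deserts and 17.9% near genes.

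Single deserts varied widely around these averages. Among the 122 deserts of at least 0.5 Mb, the 1.9-step density was lowest at 216 per Mb, had a median of 329 and was highest at 709. In 115 of the 122 it was below the near-gene density of the same chromosome. The 0.48-step density had a lowest value of 73.8 per Mb, a median of 245 and a highest of 290 (289.8), and 82 of 122 deserts lay below their chromosome's near-gene value. Across the 101 of these deserts outside chromosomes 5, 10 and 15, Pearson's r between desert length and 1.9-step density was -0.13, and between the densities of both sets 0.26 (Spearman's rho 0.04). Over all 122 deserts the r between both densities was -0.36, with rho at -0.01. These deserts share the libraries and their base composition was not read, so the values are descriptions only.

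Among deserts of at least 0.5 Mb, the densest for 1.9-step regions lay between Myc, a growth-promoting transcription factor, and Gsdmc, a pore-forming gasdermin, on chromosome 15 (62490362 to 63275970). It held 709 regions per Mb, 1.40 times the near-gene density of that chromosome, and 74.5% of them were tall. The same 0.786 Mb had the fewest 0.48-step regions, 73.8 per Mb or 0.292 times the near-gene density. A small desert of 0.064 Mb next to it, between A1bg and Myc, held 734 1.9-step regions per Mb, of which 85.1% were tall. The next densest lay between Tmpo, a nuclear lamina protein, and Nedd1, a centrosomal protein (545 per Mb), between Khdrbs3 and Fam135b (518), and between Csmd3 and Trps1, a zinc finger repressor (480). All 4 lie on chromosomes 10 and 15. The fifth, between Cetn3 and Mef2c, a transcription factor of neuron and muscle differentiation, lies on chromosome 13 and held 450 (449.9) 1.9-step and 256 0.48-step regions per Mb.

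The sparsest of the deserts of at least 0.5 Mb was the T cell receptor alpha locus between Gm36448 and Dad1, with 216 1.9-step and 158 0.48-step regions per Mb. Pfkp to Adarb2 followed at 237 and 201 per Mb, so both sets were sparse there too. Adarb2 encodes a brain protein of the RNA-editing deaminase family. Lrrc4c to Iftap held 260 (260.5) 1.9-step regions per Mb, Cdh9 to Cdh10 held 271 and Sorcs1 to Ins1 held 279. Cdh9 and Cdh10 are cadherins, calcium-dependent adhesion molecules, and Lrrc4c is a ligand of netrin-G at synapses. The most 0.48-step regions per Mb, in deserts of that length, were found between Ets1 and Kirrel3 (289.8 per Mb), Fat4 and Intu (287), Kif2b and Car10 (285), Plod2 and Dipk2a (281), and Vrk2 and Ccdc85a (273). The fewest, after the deserts of Myc, Gm36448, Csmd3 and Pfkp, lay between Tbl1xr1 and Naaladl2 (212).

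**Figure D4:**
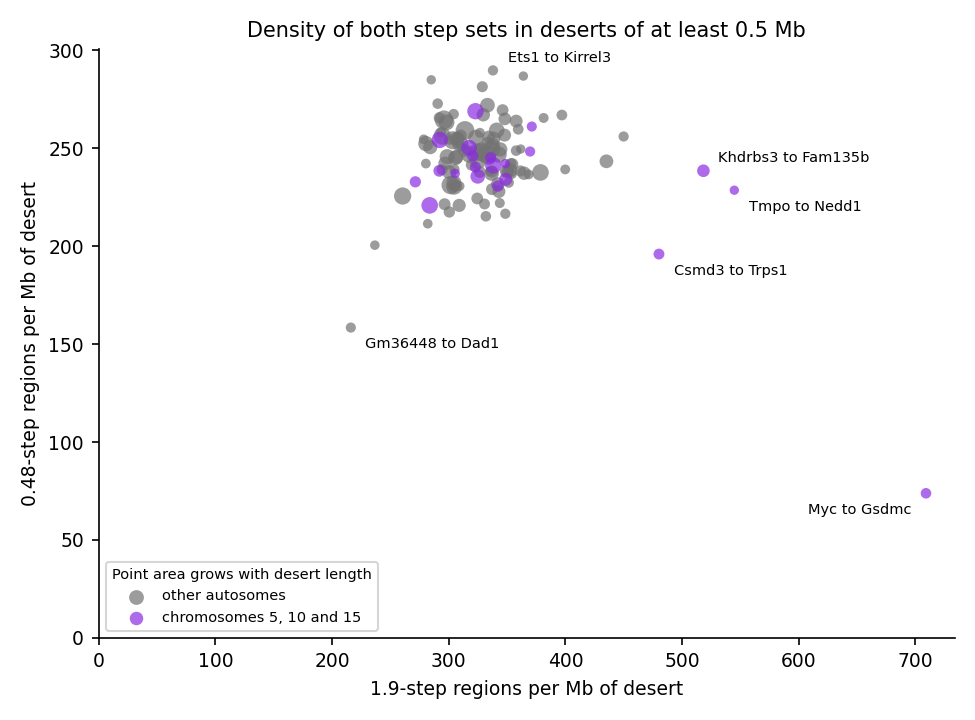
Each of the 122 deserts of at least 0.5 Mb as 1 point, by 1.9-step regions per Mb (horizontal axis) and 0.48-step regions per Mb (vertical axis), with purple for chromosomes 5, 10 and 15 and point area growing with length. Most points form a single cloud near 329 and 245 per Mb, the desert between Myc and Gsdmc stands apart at 709 and 73.8, and the T cell receptor alpha desert (Gm36448 to Dad1) is low in both.

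Many of the longest deserts had a gene for neural cell adhesion at their edge. Pcdh20 and Pcdh9, both protocadherins, bounded the longest, 3.54 Mb with 314 1.9-step regions per Mb. It was followed in length by Celf4 to Pik3c3 (3.51 Mb), Olfm4 to Pcdh17 (3.42 Mb), Cntnap5b to Cdh20 (3.28 Mb), Tenm3 to Aga (2.99 Mb), Slc39a10 to Tmeff2 (2.97 Mb), Lrrc4c to Iftap (2.93 Mb), Dsel to Cntnap5a (2.82 Mb), Zeb2 to Acvr2a (2.70 Mb) and Pcdh7 to G6pd2 (2.68 Mb). Zeb2, a zinc finger repressor of neural and neural crest development, is the only listed developmental regulator among them, and its desert held 379 1.9-step regions per Mb. The desert of Pcdh7 held 284.

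Of 83 listed genes for neural adhesion and guidance, 51 stood at the edge of a desert (61.4%), as did 25 of 109 listed developmental regulators (22.9%), against 2.21% of all protein-coding genes. The lists were drawn up with desert genes in mind, so these shares describe the lists and support nothing. The 64 deserts beside an adhesion or guidance gene made up 46.1% of all desert length and held 320 (320.1) 1.9-step regions per Mb, of which 19.03% were tall. The 26 deserts beside a developmental regulator held 390 (390.4) per Mb, of which 27.2% were tall. Without chromosomes 5, 10 and 15 the regulator deserts held 369 per Mb and 21.1% were tall, and the 2 deserts this leaves out are those on either side of Myc. The 159 deserts beside neither list held 332 per Mb, with 19.7% tall. Without chromosomes 5, 10 and 15 they held 327 per Mb with 19.3% tall, and adhesion deserts held 319.9 with 18.7% tall. Regulator deserts were also short, with a median of 0.236 Mb, against 1.36 Mb beside adhesion genes and 0.395 Mb beside neither list. The part of desert length in these densities was not tested. In 0.48-step regions the groups held 246 per Mb (adhesion), 234 (regulators) and 244 (neither). Without chromosomes 5, 10 and 15 these densities were 247.7 (adhesion), 244.9 (regulators) and 244.8 (neither), so the lower regulator value was not seen there. Among regulator deserts, that of Nr2f1, a nuclear receptor that patterns the cortex, held 435 1.9-step regions per Mb over 1.68 Mb towards Arrdc3. Pou3f3, a POU factor of neural progenitors, bordered desert with 397 per Mb, Pou3f2 353 and Bcl11a 337.

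The tallest desert regions lay on several chromosomes, most of them in deserts of ordinary density. Heights below are on the 1.9-step scale, distances run to the nearest protein-coding gene, and coordinates are mm10. The tallest, at 83.6, lay on chromosome 8 (29965419 to 29965894), 746 kb from Unc5d, a netrin receptor, with the phosphatase gene Dusp26 on the other side. It ranked 9th in the whole 1.9-step set, while the desert around it held 294 regions per Mb, 0.763 times the near-gene density of its chromosome. The next, at 55.1, lay on chromosome 11 (25100053 to 25100219), 927 kb from Bcl11a, a zinc finger transcription factor of neurons and blood cells, and towards Fancl, a ubiquitin ligase. The following one, at 47.5, was only 79 bp wide, on chromosome 6 (10186382 to 10186460), 937 kb from Nxph1, a ligand of neurexins, with the mitochondrial Ndufa4 beyond. No other annotated gene covered these 3 places. The 0.48-step set had no region over any of them, and only 17.1% of all desert 1.9-step regions overlapped one. Their highest neighbour within 5 kb reached 7.6, 7.6 and 3.8, in that order.

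Clusters of 3 regions of 10 steps or more stood in 2 deserts. On chromosome 9, between Plod2, a collagen lysyl hydroxylase, and Dipk2a, heights of 38, 24.7 and 22.8 fell within 1.69 kb (93174100 to 93175790). On chromosome 4, between Ptprd, a receptor phosphatase of synapses, and Tyrp1, an enzyme of melanin synthesis, heights of 34.2, 24.7 and 19 fell within 2.81 kb (80002391 to 80005200). Around both clusters the desert itself was ordinary, at 329 and 342 regions per Mb. Between Kcnt2, a sodium-activated potassium channel, and Cdc73, a subunit of the Paf1 complex, a height of 38 was found on chromosome 1 (142729780 to 142730010). A region of 26.6 and 78 bp lay inside the immunoglobulin kappa locus on chromosome 6 (69516337 to 69516414), and one of 24.7 lay in the lncRNA gene Gm32624 between Adamts5, an aggrecan-cleaving protease, and N6amt1 on chromosome 16 (86820791 to 86821122). Chromosome 12 had 22.8 between Gm40892 and Flrt2, an adhesion and guidance protein (93576991 to 93577240), and chromosome 13 had 20.9 between Nr2f1 and Arrdc3 (78937265 to 78938222).

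The 4 regions of 10 steps or more between Myc and Gsdmc differed in shape from these. They reached 22.8, 20.9, 20.9 and 19, were 2569, 2681, 720 and 3419 bp wide and spread over 213 kb. All 21 desert regions of 10 steps or more lay in 14 deserts on 12 chromosomes, with 5 on chromosome 15. Their median width was 429 bp, 9 were narrower than 300 bp (the narrowest measured 77 bp), and 1 overlapped a 0.48-step region. Of all desert 1.9-step regions 17.1% had such an overlap, and 21 regions are too few to set apart from that share. Whether repeats or gaps in the assembly lie under the narrow ones was not tested.

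**Figure D5:**
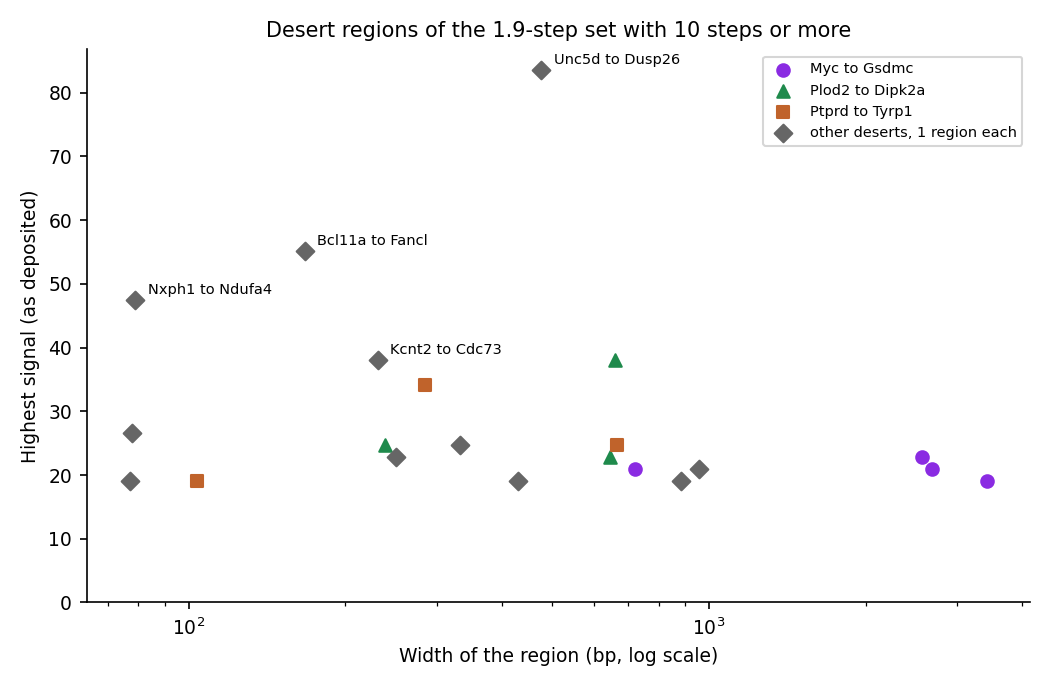
Highest signal as deposited (vertical axis) against width in bp (horizontal axis, log scale) of the 21 desert regions of 10 steps or more in the 1.9-step set, each 1 point, with the 3 deserts that hold several drawn in their own colours. The tallest, between Unc5d and Dusp26, is at 83.6 and 476 bp, and 3 of the 4 points between Myc and Gsdmc are the widest, at 2569 to 3419 bp.

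The tallest desert regions of the 0.48-step set lay in other places. The highest, at 4.32, equalled the maximum of the whole set and lay in the immunoglobulin heavy chain locus on chromosome 12 (114582156 to 114582445). The next, at 3.84, lay on chromosome 14 (97215720 to 97215994) between Klhl1 and Dach1, a transcriptional cofactor that works with relatives of Six3 in eye development, 571 kb from Dach1. Another 8 regions tied at 3.36. They lay between Pdcd1 and Fam174a, Slitrk1 and Slitrk6, Brinp3 and Pla2g4a, Nr2f1 and Arrdc3, Tmpo and Nedd1, Tenm3 and Aga, Ctnna3 and Reep3, and Slc10a2 and Efnb2. The one between Tmpo and Nedd1 lay inside Rmst, an lncRNA of neural progenitors (chromosome 10, 92134128 to 92134435). Slitrk1 and Slitrk6 are synaptic adhesion proteins, Tenm3 a teneurin of axon guidance and Efnb2 an ephrin. The desert between Nr2f1 and Arrdc3 also held one of the 15 tallest 1.9-step regions.

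Six3 itself lies on chromosome 17 (85613608 to 85626191), outside any desert and 2.90 Mb from the nearest, between Slc8a1 and Pkdcc. That desert of 0.477 Mb held 308 1.9-step and 231 0.48-step regions per Mb, with a highest 1.9-step signal of 11.4.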

How the data were processed

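The study made 4 CUT&RUN libraries (3 FLAG, 1 IgG), and the authors deposited 1 table of called regions in the SEACR layout. It gives the highest coverage signal in a region, on the scale deposited by the authors, while the sum over its bases is a score in signal times bp, also the authors' own. Bowtie2, deepTools, SEACR and mm10 are named in the submitters' processing notes, without versions. The sources used here do not give the scaling, the SEACR threshold or the use of IgG.

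Heights within 0.001 of a whole number of steps, after division by 1.9 or 0.48, set the step sets. Distances ran from region midpoints to protein-coding genes of the RefSeq table of GRCm38.p6, and lengths covered the sequence between the first and last region of a chromosome. Promoters and miRNAs came from RefSeq tables of that build. Since no column belongs to a single library, the design holds no test. Genes named are those beside the 15 tallest 1.9-step and 10 tallest 0.48-step desert regions, the 10 longest deserts, the 5 densest and 5 sparsest of each set, Six3, and listed genes by desert length; other genes, among them those beside the promoters and miRNAs shown and A1bg, were chosen after their values were seen. Some genes that the rule selects are named nowhere here. Members and lists were chosen with earlier results of these data known. In 5 simulated tables each, planted density ratios of 0.8 and 1.0 came back as 0.7945 to 0.8004 and 0.9975 to 1.0054. Simulated 1.9-step regions were placed independently, at 1 density on each side of the 500 kb limit. These tables therefore check the counting only, not the reliability of the ratios in the data. Alternatives changed the distances, gene set, step rule, tall limit, length and chromosomes. Python 3.11.15, pandas 2.3.3, numpy 2.4.6 and statsmodels 0.14.6 were used.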

Additional observations from a re-analysis of the deposited data

How the results depend on the processing

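No paired analysis was possible because the table carries no column of a single library. Of 193 alternative values, 181 stayed within the limit set for them and 12 moved beyond it. A reversal was defined for density ratios only, and 0 of these reversed. The limit was the SD between chromosomes for density ratios and widths, the Wilson 95% interval for shares of tall regions, and an equal height for the tallest region. Against the SD of that share between chromosomes (3.04 percentage points in the 1.9-step set), 6 of the moved shares changed by less. The ratio of desert to near-gene density ran from 0.809 to 0.867 (1.9-step) and from 0.940 to 0.989 (0.48-step) over 31 alternatives each. The share of tall 1.9-step regions in deserts, 20%, became 20.8% with deserts at 250 kb, 19.1% at 1000 kb, 18.6% with every annotated gene counted, 19.2% without chromosomes 5, 10 and 15, 19.3% without chromosome 15, 19.5% without the desert between Myc and Gsdmc (chosen after seeing the data), and 5.22% or 60.1% with tall set 1 step more or 1 step fewer. The 0.48-step share became 4.15% with 1 step more, and 1 step fewer was not run for that set, since it takes in every region. With every annotated gene counted, median widths became 443 bp (1.9-step) and 199 bp (0.48-step), but deserts then held 2.33 Mb and 1300 regions. The tallest desert region had a height of 26.6 at 1000 kb, against 83.6 at 500 kb. The comparison class does not enter values of deserts alone, and removing empty stretches changes lengths only. Shares and widths under those alternatives could not move, yet they are counted among the 181. Leaving out 1 chromosome at a time gave 1.9-step ratios of 0.834 to 0.841. A pooled ratio or width can hardly move by the SD between chromosomes in that way. A step tolerance of 0.01 returned the main values. The count of 181 therefore says little about stability. Depth is unknown, so no limit of detection can be given.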
